A study of Mus musculus with 4 samples.

Results

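The genes examined here encode the nuclear part of the mitochondrial respiratory chain and of the ATP synthase. They were taken by symbol, as those beginning with Nduf, Sdha, Sdhb, Sdhc, Sdhd, Uqcr, Cox4i, Cox5, Cox6, Cox7, Cox8 or Atp5 that had a mean of at least 0.5 FPKM (fragments relative to exon length and to all mapped fragments) over the 4 libraries. Of 24346 symbols listed, 96 matched and 93 passed, and these 93 stood among 12299 genes tested. The 3 that did not pass were Cox7b2, Cox8b and Cox8c, each listed at 0 in every library. The lowest members that passed were Cox4i2, Cox6a2 and Cox6b2, with means over the 4 libraries of 0.633, 0.804 and 0.838 FPKM. By function, 74 of the members are structural subunits in general use (19 catalytic core and 55 accessory), 13 are assembly or related factors, 5 are tissue-restricted isoforms or paralogs and 1 is a supercomplex factor. By name, 45 belong to complex I, 8 to complex II, 8 to complex III, 15 to complex IV and 17 to complex V.

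Liver RNA was sequenced from male C57BL/6 mice that had all been fed the NASH diet, which is rich in fat and cholesterol and holds bile salt, for 3 weeks. In the 7KC group the diet also contained 7-ketocholesterol (7KC), an oxidized form of cholesterol, and in the control group it did not. Each group had 2 libraries of whole liver. The labels number the replicates but do not name the animals, so p-values measure only the spread between these samples. The comparison asked whether 7KC in a diet that induces steatohepatitis goes with a different level of respiratory chain transcripts in the liver.

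The respiratory chain sits in the inner mitochondrial membrane. Complex I takes electrons from NADH and complex II from succinate, ubiquinone carries them to complex III, and cytochrome c carries them on to complex IV, which reduces oxygen. The proton gradient so formed drives complex V, the ATP synthase. Most subunits are encoded in the nucleus, translated in the cytosol and imported, and a few come from mitochondrial DNA. Hepatocytes are rich in mitochondria and depend on this chain for fatty acid oxidation, gluconeogenesis and urea synthesis.

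Promoters of these genes are known to carry sites for NRF1, for ETS factors such as GABP (also called NRF-2) and for YY1. The RefSeq promoter windows (GRCm38.p6, from 250 bases before to 50 after the annotated start) gave 81 promoters for 76 of the members. The letters GCGCATGCG were searched for NRF1, AAGATGGCG for YY1 and CCGGAAG for ETS factors, on both strands. The NRF1 letters overlap their own reverse complement, and no motif contained another. NRF1 letters were present in 12.3% of the member promoters, against 3.52% of the promoters of all genes tested and 1.75% of all 32851 promoters. YY1 letters were present in 8.64% of them, against 2.95% and 1.40%. ETS letters were present in 24.7%, against 16.9% and 8.86%. At least 1 of the 3 was found in 39.5% of the member promoters, against 21.8% and 11.4%. The 6 sequences below, chosen after the matches were seen to show each motif and each complex, run 5′ to 3′ from 70 bases before to 50 bases after the start. Capitals mark a match on either strand.
Ndufs3 (chr2:90904672-90904791, minus strand): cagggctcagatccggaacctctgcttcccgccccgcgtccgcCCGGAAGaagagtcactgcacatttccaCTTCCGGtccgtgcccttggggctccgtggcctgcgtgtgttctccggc
Ndufs7 (chr10:80249379-80249498, plus strand): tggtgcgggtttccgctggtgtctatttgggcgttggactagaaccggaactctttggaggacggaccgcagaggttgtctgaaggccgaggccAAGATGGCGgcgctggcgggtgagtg
Sdhb (chr4:140961201-140961320, plus strand): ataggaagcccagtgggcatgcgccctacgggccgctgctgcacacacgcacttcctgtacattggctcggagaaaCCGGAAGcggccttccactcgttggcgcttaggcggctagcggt
Uqcr11 (chr10:80406772-80406891, minus strand): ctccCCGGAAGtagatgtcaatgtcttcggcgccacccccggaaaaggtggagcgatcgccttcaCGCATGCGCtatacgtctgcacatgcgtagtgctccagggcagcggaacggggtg
Cox6b1 (chr7:30626065-30626184, minus strand): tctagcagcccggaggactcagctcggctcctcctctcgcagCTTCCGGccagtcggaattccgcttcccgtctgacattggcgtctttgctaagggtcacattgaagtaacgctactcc
Atp5k (chr5:108434350-108434469, minus strand): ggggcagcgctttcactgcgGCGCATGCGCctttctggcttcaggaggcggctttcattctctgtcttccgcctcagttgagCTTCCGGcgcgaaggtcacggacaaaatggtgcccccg

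In Atp5k the NRF1 letters began 50 bases before it and the ETS letters 12 bases after it. In Ndufs7 the YY1 letters began 24 bases after the start, and in Sdhb the ETS letters began 6 bases after it. Both Ndufs3 and Cox6b1 carried ETS letters, and Uqcr11 carried ETS and NRF1 letters. Members with and without a match had similar differences in level. The 32 genes with a match had a median log2 change of −0.27 and 22 of them were lower without overlap between groups, and the 44 genes without one had a median of −0.28 and 30 lower. Over all genes tested 27.4% were lower in this sense, with a median of −0.03.

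In the livers of mice fed 7KC, transcripts of all 5 complexes were lower, by similar amounts from complex to complex. The sums were 3.36% to 6.65% below the control mean with every library rescaled to the same sum of FPKM. In FPKM as deposited, used from here on unless another scale is named, they were 15.9% to 18.8% below it. No member passed the threshold of an adjusted p under 0.05 (limma on log2(FPKM + 0.5) over all 12299 genes), at which 59 genes were higher (0.48%) and 3 lower (0.0244%). The smallest adjusted p of a member was 0.0619, for Cox6a2, which reached the filter on low values only through the 7KC group, as did Cox6b2 and Cox4i2. Among the members with a control mean of at least 0.5 FPKM it was 0.188, for Ndufs1. At an unadjusted p under 0.05, 2 members were higher and 11 lower, against 12% and 5.81% of all genes tested. Counting genes whose libraries did not overlap between groups, 64 members were lower and 5 were higher in both 7KC libraries, and 24 overlapped. The 5 higher ones included these 3 low genes. Over all genes tested 27.4% were lower and 25.1% higher in this sense, against 68.8% and 5.38% of the members. Part of that gap went with level, since abundant genes as a whole were lower. Of 370 other genes in the middle of the structural subunits' level range, 52.4% were lower and 11.9% higher. Rescaled to the same sum, 30.1% of the members were lower and 11.8% higher, beside 24.6% and 32.2% of those other genes. With 2 libraries against 2, the smallest 2-sided p of an exact permutation test is 0.333, so none was used for single genes.

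Summed over its members, complex I stood at 6356 and 5883 FPKM in control replicates 1 and 2, and at 5663 and 4593 FPKM in 7KC replicates 1 and 2. The mean was 6120 ± 335 FPKM in the control group and 5128 ± 756 FPKM in the 7KC group (SD, n = 2), or 16.2% lower. Complex II summed to 792.8, 737.3, 677.8 and 591.5 FPKM in the same order (control replicates 1 and 2, then 7KC replicates 1 and 2), which is kept for every set of 4 values, and was 17.1% lower in the 7KC group. For complex III the sums were 2860, 2697, 2543 and 2032 FPKM, which was 17.7% lower. In FPKM as deposited, both 7KC libraries were below both control libraries in every complex, and 7KC replicate 2 was the lowest. With every library rescaled to the same sum of FPKM, both 7KC libraries were below both controls in complex II alone. Complex IV summed to 4611, 4229, 4138 and 3297 FPKM, or 15.9% lower, and complex V to 5975, 5496, 5094 and 4215 FPKM, or 18.8% lower. The balance between the complexes stayed narrow: complex I held 30.9% to 31.3% of the summed member FPKM in the 4 libraries, complex II 3.74% to 4.02%, complex III 13.8% to 14.2%, complex IV 22.2% to 22.8% and complex V 28.1% to 29.0%.

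**Figure D1:**
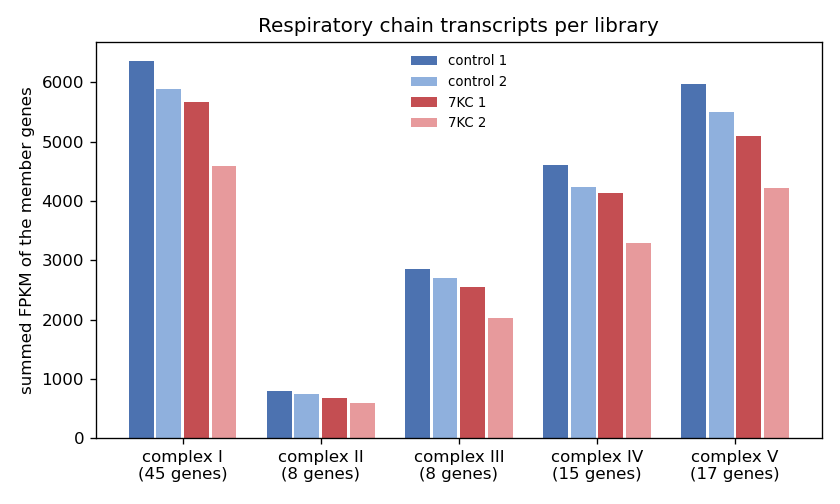
Summed FPKM, as deposited, of the member genes of each complex (y axis) in each of the 4 libraries (bars, 2 control and 2 7KC), with the number of genes under each complex. In all 5 complexes the bars descend from control replicate 1 to 7KC replicate 2, for example from 6356 to 4593 FPKM in complex I.

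The size of the difference rested on which 7KC library was used. Over the 93 members the median log2 difference between 7KC replicate 2 and 7KC replicate 1 was −0.30, with 90 members lower in replicate 2. That gap inside the 7KC group was as large as the median difference between groups, −0.27. The control libraries differed by a median of −0.12, with 77 members lower in replicate 2. Against control replicate 2, the lower of the controls, 7KC replicate 1 had a median of −0.06 and 7KC replicate 2 one of −0.35. 7KC replicate 2 was the lowest library for 85 of the 93 members and for 73 of the 74 structural subunits, and control replicate 1 was the highest for 72 members. Without 7KC replicate 2 the median over the members was −0.13, and without 7KC replicate 1 it was −0.42. 7KC replicate 1 alone lay below both controls for 64 members, between them for 18 and above both for 11.

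**Figure D2:**
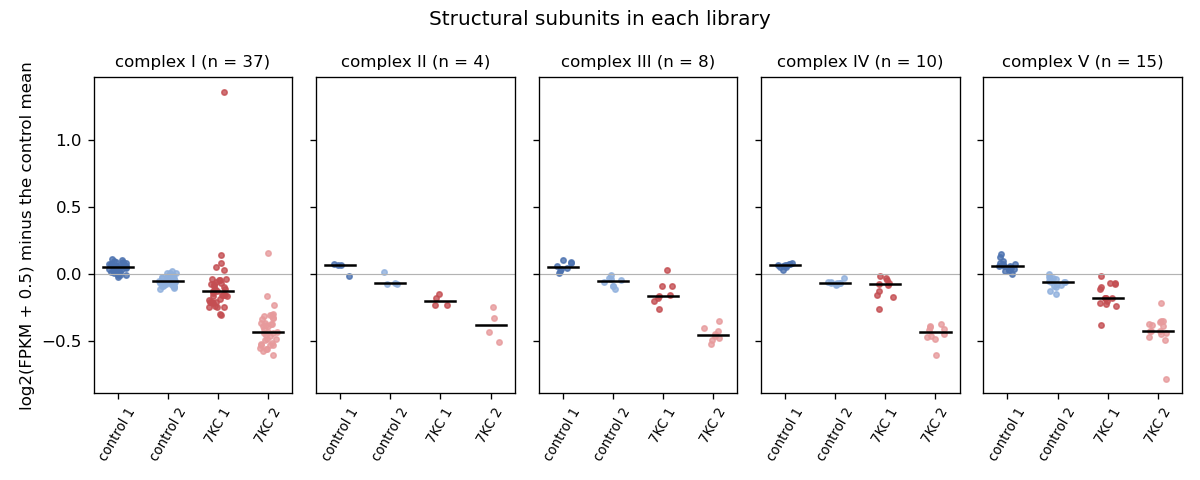
Structural subunits of each complex (points), plotted as log2(FPKM + 0.5) minus the mean of the 2 control libraries, in each library; bars are medians. The points of 7KC replicate 2 lie lowest in every complex, and the lone high point in complex I is Ndufs5 in 7KC replicate 1.

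Complex I is the largest complex and the main entry of electrons. Its 37 structural subunits had a median log2 change of −0.27, and 26 were lower without overlap, 1 was higher and 10 overlapped. Such counts for each complex stand beside 27.4% lower and 25.1% higher over all genes tested. Rescaled to the same sum, 25 of the 74 structural subunits of all complexes were lower and 3 higher, beside 7.83% and 46.6%. The core subunits named here were lower in both 7KC libraries. Ndufs1, in the module that oxidizes NADH (GRCm38 chr1:63143596-63176833, minus strand), stood at 41.5 and 42.8 FPKM without 7KC against 33.99 and 29.9 FPKM with it. The log2 change of Ndufs1 was −0.40 (SE 0.12, limma adjusted p = 0.188), and this was the smallest adjusted p of complex I. In the same module the FMN-binding Ndufv1 had 94.1, 92.5, 83.3 and 68.8 FPKM, with a log2 change of −0.30, and Ndufv2 had 64.3, 59.8, 56.2 and 46.7 FPKM, with one of −0.27. In both, the gap between the 7KC libraries was wider than that between the control libraries. In the module that passes electrons to ubiquinone, the log2 change was −0.27 for Ndufs3, −0.19 for Ndufs7 and −0.30 for Ndufs8.

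The accessory subunits of complex I, which stabilize the complex and assist its assembly, gave the largest differences in it. Ndufb9, in the membrane arm, had 327.6 and 300.9 FPKM without 7KC against 255.1 and 207.2 FPKM with it (log2 change −0.45, SE 0.15, limma adjusted p = 0.233). Ndufa9, which lies near the ubiquinone site, had 78.1, 73.6, 63.9 and 51.5 FPKM (log2 change −0.40, adjusted p = 0.244). At the other end, Ndufa3 had 374.7, 335.8, 375.5 and 317.6 FPKM and its groups overlapped, and so did those of Ndufa11, the lowest structural subunit with a mean of 12.9 FPKM.

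Ndufs5 was the single structural subunit that was higher in the 7KC group without overlap. It stood at 28.3 and 28.6 FPKM without 7KC, at 73.7 FPKM in 7KC replicate 1 and at 31.8 FPKM in 7KC replicate 2. The log2 change came to 0.76 (SE 0.38, adjusted p = 0.367), and without 7KC replicate 1 it was 0.16. Most of the difference was that of 1 library. How reads shared with near-identical copies were counted is not given in the sources used here. The complex I assembly factors were lower by amounts like those of the subunits: Ndufaf4 had a log2 change of −0.38 and Ndufaf7 one of −0.38, whereas Ndufaf2 had −0.10 and Ndufaf3 −0.12.

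Complex II, succinate dehydrogenase, also belongs to the citric acid cycle, and is encoded by nuclear genes alone. Its 4 subunits were all lower without overlap. Sdha, the flavoprotein that oxidizes succinate, had 172.9 and 156.8 FPKM without 7KC against 140.4 and 122.1 FPKM with it (log2 change −0.33, SE 0.13, adjusted p = 0.287). Sdhb, the iron-sulfur subunit, had 238.1, 215.1, 204.6 and 159.4 FPKM (log2 change −0.32). The membrane anchors Sdhc and Sdhd had log2 changes of −0.21 and −0.28. The assembly factors of this complex did not move together. Sdhaf3 stood at 10.4, 10.5, 9.28 and 6.21 FPKM (log2 change −0.43), while Sdhaf2, which helps attach FAD to Sdha, stood at 9.10, 8.30, 9.72 and 9.23 FPKM (log2 change 0.12), higher in both 7KC libraries. Sdhaf1 and Sdhaf4 overlapped between groups.

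Complex III passes electrons from ubiquinol to cytochrome c. Its 8 members had the lowest median of the complexes, a log2 change of −0.32, and 7 were lower without overlap, all but Uqcr10. Uqcrfs1, the Rieske iron-sulfur protein, had 163.6 and 144.5 FPKM without 7KC against 128.5 and 114.6 FPKM with it (log2 change −0.34, SE 0.13, adjusted p = 0.273). The core proteins Uqcrc1 and Uqcrc2 had log2 changes of −0.31 and −0.36. Uqcrq, the most abundant structural subunit of all with a mean of 782 FPKM, had 883.3, 852.7, 775.2 and 617.0 FPKM (log2 change −0.33). Cyc1, the cytochrome c1 subunit of this complex, and Cycs, cytochrome c itself, were outside the symbols chosen. Both were lower without overlap, with log2 changes of −0.41 and −0.27.

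Complex IV, cytochrome c oxidase, has nuclear-encoded subunits around a core made from mitochondrial DNA, and several of them exist in a liver or general form and in forms restricted to other tissues. Its 10 structural subunits had a median log2 change of −0.25, and 6 of them were lower without overlap. Cox6c had 501.5 and 482.7 FPKM without 7KC against 438.2 and 323.4 FPKM with it (log2 change −0.39). Cox7a2, the liver form of subunit VIIa, had 181.5, 164.1, 143.7 and 123.6 FPKM (log2 change −0.37, SE 0.14, adjusted p = 0.253). Cox4i1, the main form of the regulatory subunit IV, had 620.0, 568.1, 532.2 and 431.9 FPKM (log2 change −0.31). Cox5a, Cox6a1, Cox7b and Cox8a overlapped between groups, in each case because 7KC replicate 1 lay between the controls. Cox7a2l, which joins complexes III and IV into supercomplexes, differed from the subunits, with 131.3, 118.3, 123.2 and 131.2 FPKM and a log2 change of 0.03 (SE 0.12). Ndufa4, named for complex I but counted today with complex IV, had a log2 change of −0.25.

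The tissue-restricted isoforms of complex IV were read from few fragments, and 3 of them were higher where the liver forms were lower. Cox6a2, the heart and muscle form of subunit VIa (GRCm38 chr7:128205435-128206387, minus strand), had 0.130 and 0.162 FPKM without 7KC against 1.79 and 1.13 FPKM with it. That is about 1.1 and 1.1 reads against 11.7 and 7.5 reads, estimated from the transcript length and library depth. The log2 change came to 1.58 (SE 0.24, adjusted p = 0.0619). Cox6b2, the testis form of subunit VIb, had 0.464, 0.493, 1.24 and 1.15 FPKM, or about 3.1, 2.6, 6.5 and 6.1 reads (log2 change 0.79, SE 0.18, adjusted p = 0.12). Cox4i2, an isoform known from lung, had 0.565, 0.140, 0.565 and 1.26 FPKM (log2 change 0.73, SE 0.37, adjusted p = 0.369), and 7KC replicate 1 exceeded control replicate 1 by less than the digits given show. Their control means were under 0.5 FPKM, so these 3 genes passed the filter on low values only through the 7KC group and had to be higher there. The main forms were far more abundant, and Cox6a1 had 677.0, 626.8, 632.4 and 499.2 FPKM.

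Cox7a1, the heart and muscle form of subunit VIIa (GRCm38 chr7:30184144-30186078, plus strand), went the other way. It stood at 8.38 and 5.20 FPKM without 7KC against 4.29 and 2.84 FPKM with it (log2 change −0.83, SE 0.28, adjusted p = 0.228), the lowest log2 change of any member in this fit. The value was −0.51 without control replicate 1 and −0.57 without 7KC replicate 2. Cox7a2 exceeded it 25.4-fold in the control mean and 37.5-fold in the 7KC mean. Ndufa4l2, a paralog of Ndufa4, had 2.78, 4.12, 4.15 and 2.69 FPKM (log2 change −0.02). Markers of striated muscle were at or near 0: of 7 genes, 0 reached the filter, Acta1, Myh7 and Ckm were listed at 0 in every library, and the summed level was 0.178 and 0.515 FPKM without 7KC against 0.322 and 0.745 FPKM with it. For testis, Tnp1 was listed at 0 in every library, and 3 markers summed to 0 FPKM in both control libraries and to 0.418 and 1.16 FPKM in the 7KC libraries.

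**Figure D3:**
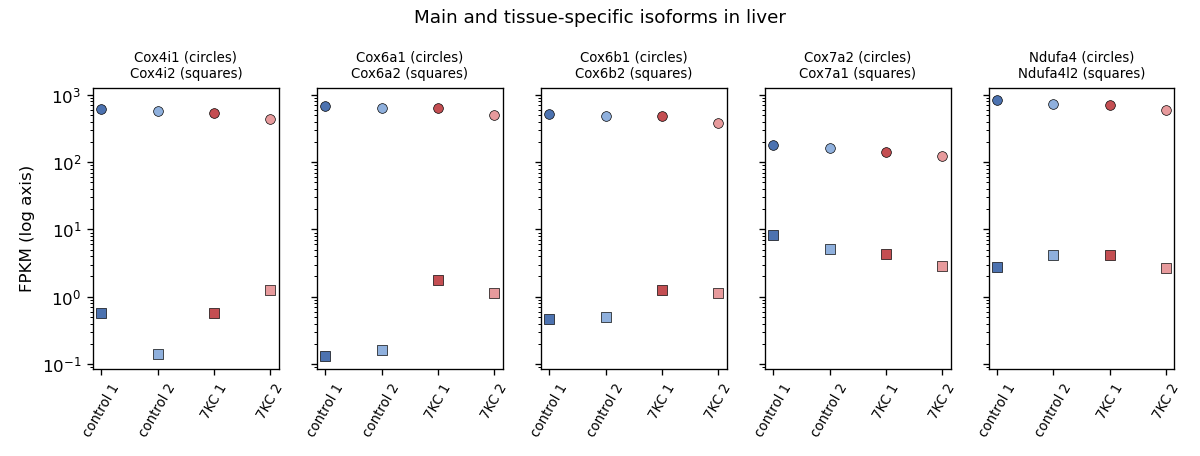
FPKM on a log axis in each library for 5 pairs of genes, with the general or liver form as circles and the isoform or paralog as squares. Cox6a2 and Cox6b2 are higher in both 7KC libraries (up to 1.79 and 1.24 FPKM) and Cox7a1 is lower, while the circles stay at more than 100 FPKM.

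Complex V makes ATP, with a catalytic head (F1), a rotor that includes the c-ring, a peripheral stalk and small membrane subunits. Of its 15 structural subunits 13 were lower without overlap, and the median log2 change was −0.28. In the head, Atp5b (GRCm38 chr10:128083273-128090391, plus strand) had 662.5 and 630.2 FPKM without 7KC against 549.2 and 482.5 FPKM with it (log2 change −0.33, SE 0.15, adjusted p = 0.32). Atp5a1 had 395.8, 370.1, 329.7 and 284.6 FPKM (log2 change −0.32). In the central stalk, Atp5c1 and Atp5d had log2 changes of −0.27 and −0.28. Atp5e, the smallest stalk subunit, had 418.8, 339.8, 373.4 and 295.8 FPKM (log2 change −0.18) and was the single core subunit of the 19 whose groups overlapped. The c-ring is encoded by 3 genes for the same mature protein. Of these, Atp5g1 and Atp5g3 had log2 changes of −0.34 and −0.31 and Atp5g2 one of −0.14. The peripheral stalk genes Atp5f1, Atp5h, Atp5j and Atp5o ranged from −0.24 to −0.32.

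The lowest log2 change of any structural subunit was that of Atp5k, subunit e of the membrane part, which takes part in joining ATP synthase dimers (GRCm38 chr5:108433244-108434448, minus strand). It stood at 744.2 and 743.1 FPKM without 7KC against 571.3 and 433.2 FPKM with it. The log2 change came to −0.58 (SE 0.18, adjusted p = 0.202), and it was −0.38 without 7KC replicate 2. Its neighbours in the membrane part, Atp5l and Atp5j2, had log2 changes of −0.22 and −0.24. Atp5s, named for complex V but no subunit of it, had 4.28, 4.52, 4.56 and 4.24 FPKM, close to 0 on the log2 scale.

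**Figure D4:**
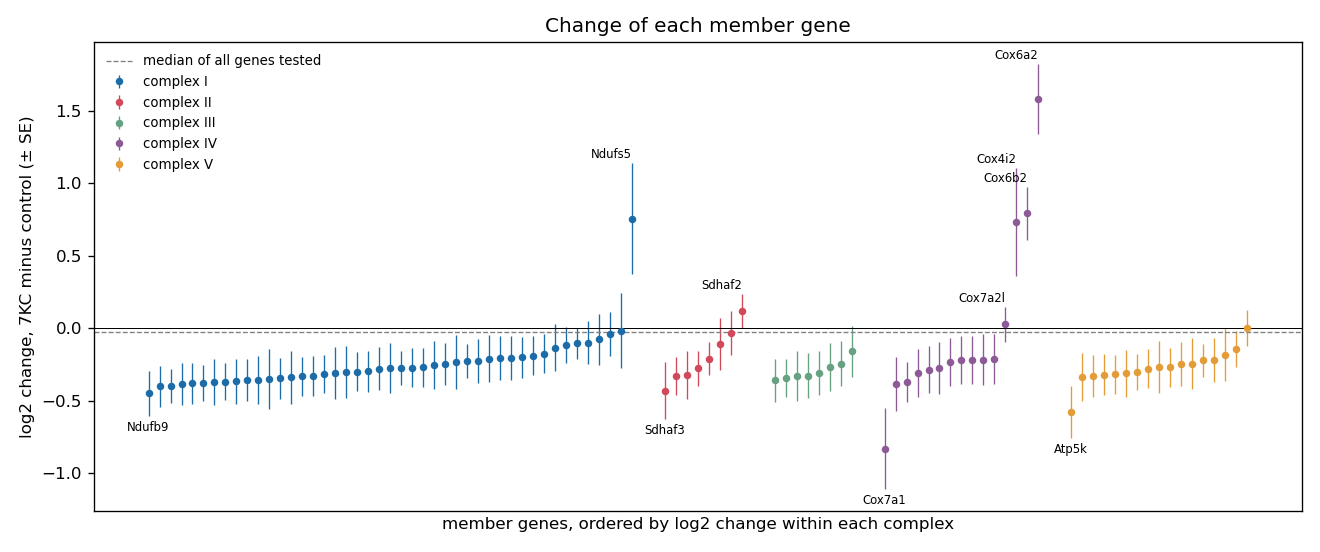
Log2 change of each member (7KC minus control, on log2(FPKM + 0.5), with the limma SE as bars), ordered within each complex and coloured by complex; the dashed line is the median of all genes tested, −0.03. Most members lie in a narrow band between −0.45 and −0.1, with Cox6a2, Cox6b2, Cox4i2 and Ndufs5 above it and Cox7a1 and Atp5k below it.

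The structural subunits varied little among themselves. The interquartile range of their log2 changes was 0.109, against 0.374 over all genes tested. Such a narrow range was not particular to them. It was 0.127 over 38 proteasome genes, 0.129 over 91 cytosolic and 0.141 over 77 mitochondrial ribosomal protein genes. Core and accessory subunits had medians of −0.30 and −0.27, with 18 of 19 core subunits lower without overlap and 38 of 55 accessory ones. The 13 assembly factors had a median of −0.22, with 7 lower and 1 higher. Over all genes tested 27.4% were lower and 25.1% higher. Rescaled to the same sum, 8 core subunits were lower and 0 higher, and 17 accessory ones were lower and 3 higher. There 2 assembly factors were lower and 4 higher, beside 7.83% and 46.6% of the genes tested. The log2 change bore no clear relation to level within the structural subunits (Spearman's rho 0.03 across 74 genes), although over all genes tested abundant genes were lower (rho −0.30 across 12299 genes). These genes share the same 4 libraries, and rho is given as a description. The structural subunits are abundant, with 62 of 74 at 100 FPKM or more and a median of 173 FPKM. The 370 other genes in the middle of their level range, from 118.8 to 342.6 FPKM, had a median log2 change of −0.20, and 194 of them (52.4%) were lower without overlap and 44 higher.

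How the libraries are scaled changed the size of the difference, since the libraries differed in total FPKM, at 685028, 671235, 619828 and 557138 in the order used above. The members held 3.01% and 2.84% of it in the control and 2.92% and 2.64% in the 7KC libraries, so as a share of all FPKM the groups overlapped. With every library rescaled to the same sum, the median of all genes tested moved from −0.03 to 0.16 and that of the members from −0.27 to −0.07. Relative to the median of all genes the members were then at −0.23, against −0.25 as deposited. On this scale 28 members (30.1%) were lower without overlap and 11 (11.8%) higher, beside 7.83% and 46.6% of the genes tested. Of the 370 other genes in the middle of the subunits' level range, 24.6% were lower and 32.2% higher, with a median of 0.008. The complexes were 3.36% to 6.65% lower. In complexes I, III, IV and V the rescaled sum of 7KC replicate 1 was above that of control replicate 2. Only in complex II were both 7KC libraries below both controls. Cox6a2 was under the threshold on the same-sum scale (log2 change 1.68, adjusted p = 0.0329), but this gene had reached the filter on low values only through the 7KC group. Scaled instead by each library's median ratio to the geometric mean of each gene, the members had a median of −0.26, against −0.01 for all genes. There 63 members were lower without overlap and 5 higher, beside 25.8% and 26.1% of the genes tested. After quantile normalization the members had a median of −0.14 against −0.08 for all genes, a relative shift of −0.07. On that scale 52 members were lower without overlap and 4 higher, beside 34.3% and 21.1% of the genes tested.

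Cell type markers differed between the groups, the hepatocyte markers by an amount that depended on the scale. The 10 hepatocyte markers, among them Alb and Apoa1, summed to 71501 and 59434 FPKM without 7KC against 51073 and 38350 FPKM with it. Their median log2 change was −0.51, with 7 lower without overlap, and none was at 0. The median was −0.31 with 4 lower on the same-sum scale, and −0.14 with 3 lower after quantile normalization. Over all genes tested 27.4%, 7.83% and 34.3% were lower on these scales in turn, with medians of −0.03, 0.16 and −0.08. After quantile normalization the 30% of hepatocyte markers that were lower was thus under the share of all genes. The 10 leukocyte markers, among them Ptprc, Lyz2 and Ly6c2, summed to 613 and 370 FPKM without 7KC against 1149 and 1782 FPKM with it. Their median was 1.32 and 9 were higher without overlap, where 25.1% of all genes tested were higher. The hepatocyte sum had the same order of libraries as the respiratory chain sums, with 7KC replicate 2 the lowest and control replicate 1 the highest. The part of these shifts in the respiratory chain result was not tested. In whole liver, fewer cells of a type and less RNA per cell cannot be told apart.

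**Figure D5:**
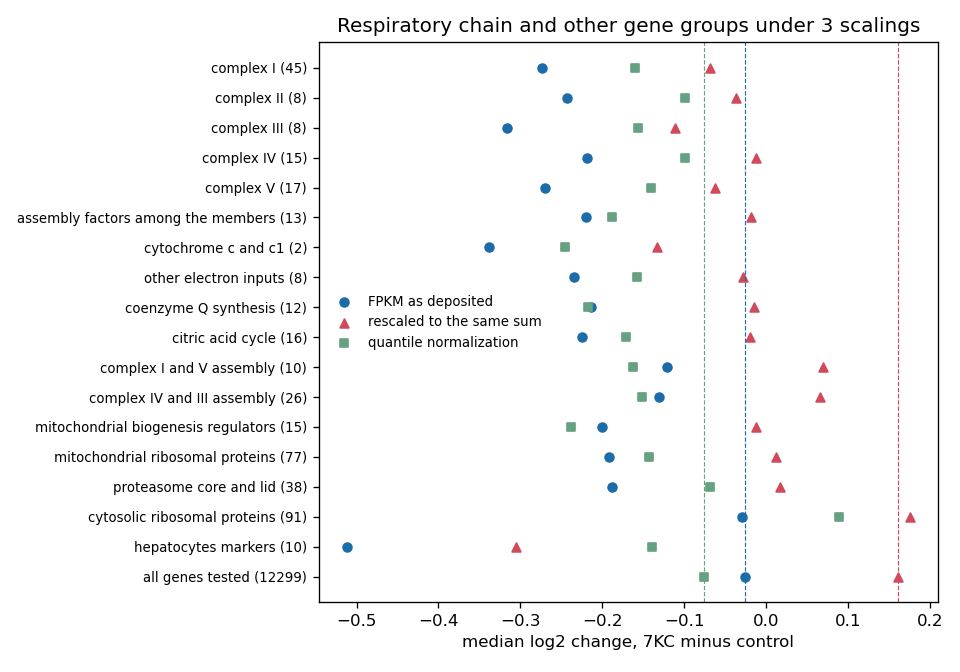
Median log2 change (x axis, 7KC minus control) of each complex and of other gene groups under 3 scalings: FPKM as deposited (circles), rescaled to the same sum (triangles) and quantile normalization (squares), with the number of genes in parentheses. Dashed lines are the medians of all genes tested under each scaling, −0.03, 0.16 and −0.08, and the complexes lie to the left of their own line in each.

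None of the genes that work beside the chain passed the threshold in FPKM as deposited. The lists of them had medians below that of all genes tested, save the list of ATP synthase inhibitor, uncoupling and carrier genes given further below. Their counts stand beside the 27.4% of all genes that were lower and the 25.1% that were higher without overlap. Of 8 genes that feed electrons to ubiquinone by other routes, 5 were lower and 0 higher without overlap, with a median of −0.23. Among them the electron-transfer flavoprotein genes Etfa and Etfb, which serve fatty acid oxidation, had log2 changes of −0.40 and −0.29. Of 12 genes for ubiquinone (coenzyme Q) synthesis, 7 were lower and 0 higher, with a median of −0.21. Adck3, a kinase-like protein needed for that synthesis, stood at 61.0 and 75.6 FPKM without 7KC against 49.4 and 41.0 FPKM with it (log2 change −0.59, adjusted p = 0.166). Of 16 genes of pyruvate oxidation and the citric acid cycle, 11 were lower and 0 higher, with a median of −0.22. The lowest was Pdhb, a subunit of pyruvate dehydrogenase, at 98.6, 131, 76.5 and 56.7 FPKM (log2 change −0.78, adjusted p = 0.158). On the same-sum scale, where the median of all genes was 0.16, the medians of these 3 lists were −0.03, −0.02 and −0.02, with 2, 3 and 4 genes lower and 1 higher in each.

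The other assembly factors were closer to all genes. Of 26 for complexes III and IV, 8 were lower and 1 higher without overlap, with a median of −0.13, and of 10 for complexes I and V, 3 were lower and 1 higher, with a median of −0.12. Relative to the median of all genes they were at −0.11 and −0.10 as deposited, and at −0.09 and −0.09 on the same-sum scale. On that scale the medians themselves were 0.07 and 0.07, where that of all genes was 0.16. There 4 and 1 were lower without overlap and 6 and 2 higher, beside 7.83% and 46.6% of the genes tested. Of 4 genes tested that inhibit the ATP synthase, uncouple it or carry ADP and ATP, 3 were higher and 1 lower without overlap, with a median of 0.69. On the same-sum scale 3 were higher and 0 lower, with a median of 0.89. There 1 of them was under the threshold (limma adjusted p = 0.0323), as were 398 higher genes and 7 lower ones among the 12330 tested. The values that follow are as deposited. Ucp2, an uncoupling protein family member abundant in immune cells, had 72.5 and 56.9 FPKM without 7KC against 134 and 170 FPKM with it (log2 change 1.23, SE 0.18, adjusted p = 0.0606). Atpif1, the inhibitor of ATP synthase, had 10.6, 8.66, 14.5 and 14.4 FPKM (log2 change 0.57), and Slc25a4, an ADP/ATP carrier known from muscle and heart, had 9.94, 9.59, 14.0 and 21.9 FPKM (log2 change 0.81). Slc25a5, the far more abundant carrier in these livers, was on the other side with 336, 312, 295 and 279 FPKM (log2 change −0.17). Ucp1 and Ucp3 were listed at 0 in every library.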

How the data were processed

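RNA of 4 liver libraries (2 control, 2 7KC, grouped by the sample labels) was sequenced by the authors as 75-base single-end reads from stranded mRNA libraries. Per the submitters' processing notes, TopHat2 2.1.1, Bowtie2 2.2.8, SAMtools 0.1.18 and Cuffdiff 2.2.1 were used with mm10. The authors deposited FPKM per gene symbol and library. The annotation, the settings for shared reads and strand, and the scaling between libraries are not given in the sources used here. FPKM is by definition relative to mapped reads, and with that scaling alone abundant genes would move the rest. Whether a further scaling was applied is not known.

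Depth was estimated from the steps of low values with GENCODE M21 transcript lengths, at 17100000, 13800000, 13600000 and 13700000 mapped reads. Any further scaling of the libraries within the deposited FPKM would shift these estimates. Read numbers are approximate and cover counting error only.

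Values were compared as log2(FPKM + 0.5), which understates changes of low genes, over the 12299 genes whose mean reached 0.5 FPKM, with limma 3.58.1 (R 4.3.3, lmFit and eBayes with trend, group as the only term, 2 residual and 3.27 prior degrees of freedom). P-values are 2-sided and Benjamini-Hochberg adjusted over all genes tested. The fit was tested on simulated data. No test was made on a gene list. Named genes were, in each complex, the 3 largest differences in each direction without overlap, the core subunits and the isoforms, and others were named after their values were seen. The values of 1 gene are not reported here. The members, lists and tests were chosen with earlier results of these data known. Of 129 listed genes, 4 newer symbols had no match and stand under older ones (Sqrdl, Adck3, Atpif1, Peo1). Alternatives were other pseudocounts, filters and scalings, a replicate block, leaving out each library, structural subunits only and no variance trend.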

Additional observations from a re-analysis of the deposited data

How the results depend on the processing

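The directions of the 5 complexes were negative under every alternative run, though the replicate block could not have changed them. Rescaling to the same sum made the differences smaller: the median log2 change was −0.068 over the members, −0.069 in complex I, −0.037 in complex II, −0.11 in complex III, −0.013 in complex IV and −0.063 in complex V, and the sums were −3.68%, −4.47%, −5.40%, −3.36% and −6.65% against the control mean in complexes I to V. On that scale 28 members were lower and 11 higher without overlap, beside 7.83% and 46.6% of the genes tested. There 1 member was under the threshold (Cox6a2, which reached the filter only through the 7KC group). Ndufa4l2, Ndufs7 and Atp5e turned to 0.16, 0.017 and 0.024. Of the members higher without overlap, 2 were left with a mean of at least 5 FPKM and 1 among structural subunits only. Leaving out 1 library at a time moved the median of complex I between −0.42 and −0.13, the count of members higher without overlap between 4 and 10, and Ndufa4l2 between −0.29 and 0.26. The lone library was assumed to vary like the other group, and Cox6a2 was under the filter without 7KC replicate 1. The deviations by replicate number correlated at −0.14 over all genes. With 2 libraries a group this value cannot decide whether the numbers pair the samples. With a replicate block 0 members passed, and the calls over all genes went from 62 to 0. The median stayed at −0.27, which was fixed in advance because such a block leaves the log2 changes as they are in this balanced layout. With the crossed pairing, added after seeing the data, 588 genes and 1 member passed. Of 436 results, each 1 of the 34 genes chosen by rule under 1 alternative setting, 430 kept direction and side of the threshold. All of these genes but Cox6a2 and Cox6b2 had a limma adjusted p of at least 0.188 in the main fit. Keeping the side of the threshold therefore shows little. With 2 libraries a group the SEs of the structural subunits were 0.112 to 0.384 on the log2 scale, and that spread bounds which differences could pass.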

Other observations

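Among 15 regulators of mitochondrial biogenesis and mitochondrial DNA, 7 were lower and 1 higher without overlap, with a median log2 change of −0.20, beside 27.4% and 25.1% of all genes tested. Rescaled to the same sum, 4 were lower and 3 higher, with a median of −0.01 where that of all genes was 0.16. Ppargc1b, a coactivator that drives respiratory chain genes, stood at 3.84 and 3.86 FPKM without 7KC against 1.77 and 2.11 FPKM with it (log2 change −0.84, SE 0.15, limma adjusted p = 0.0732). Its relative Ppargc1a had 3.85, 2.00, 2.48 and 1.61 FPKM (log2 change −0.39), and its groups overlapped. Tfb2m and Polrmt, which transcribe mitochondrial DNA, had log2 changes of −0.44 and −0.33, and Peo1, the mitochondrial helicase, −0.43. Nrf1, the factor whose letters were searched in the promoters, had 2.63, 2.96, 2.94 and 2.85 FPKM (log2 change 0.04), Gabpa had −0.08 and Yy1 −0.21.

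Genes for protein synthesis and turnover gave the following values. Their counts without overlap stand beside 27.4% lower and 25.1% higher over all genes tested. Of 77 mitochondrial ribosomal protein genes 44 were lower and 0 higher without overlap, with a median log2 change of −0.19. Of 91 cytosolic ribosomal protein genes 22 were lower and 10 higher, with a median of −0.03. Of 38 proteasome genes 27 were lower and 5 higher, with a median of −0.19. Relative to the median of all genes, the 3 medians on the same-sum scale were −0.15, 0.01 and −0.14, and that of complex IV was −0.17. Without that subtraction the 3 medians were 0.01, 0.18 and 0.02, where that of all genes was 0.16. On this scale 6, 1 and 2 genes of the 3 lists were lower without overlap and 19, 73 and 12 higher. Over all genes tested 7.83% were lower on it and 46.6% higher.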
